A study of Mus musculus with 12 samples.

Results

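The genes of mitosis and its spindle checkpoint were followed in cultured mouse B cells that carry either wild-type MYC or MYC with the point mutation T58A. The 46 genes were chosen by symbol, from a fixed list that covers the kinases and cyclins of mitotic entry, the checkpoint, the kinetochore, the spindle and its motors, anaphase, chromosome structure and cytokinesis. Of these, 45 had a row in both deposited tables, which hold 23973 and 24015 genes. Aurkb, the kinase of the chromosomal passenger complex, was found under this symbol in the LPS table and is not analysed here in the IL7 cultures. All 45 members of the IL7 table and all 46 of the LPS table passed the filter on low counts, and the fewest reads behind any of them in 1 library were 299 and 101, both for Cdc25c.

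The 12 libraries were made from total RNA of primary B cells of WT mice and of their T58A littermates, in 4 groups of 3. Immature B cells from marrow were kept with IL7, a cytokine on which B cell precursors depend for growth, and mature B cells from spleen with LPS, a component of bacterial walls that sets B cells dividing and on the way to antibody secretion. Both cultures lasted 48 h. The residue changed in T58A is one whose phosphorylation marks MYC for degradation. It was carried by the mouse, and the labels name no other engineered allele or transgene in either genotype. Neither the number of mutant alleles nor age is given in the sources used here. The titles give each WT library and its T58A partner a pair number from 1 to 3. In the LPS table a pair of T58A columns share 1 header, and they appear here as the first unnumbered and the second unnumbered column. Nothing in the labels says which animal gave which library, so p-values measure the spread of these libraries, some of which may be technical.

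A cell enters mitosis when cyclin B and its kinase CDK1 become active, and it leaves when the anaphase-promoting complex, switched on by CDC20, destroys cyclin B and securin. Securin holds separase in check, and the spindle checkpoint keeps CDC20 silent until every kinetochore is attached to the spindle. Most of these genes are transcribed in a wave late in the cell cycle, under the MuvB complexes with B-MYB and FOXM1. MYC is known for driving growth and entry into the cycle.

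Depth ranged from 8486753 to 10201113 reads assigned to genes in the IL7 libraries and from 5110746 to 9332410 in the LPS libraries. All 7 B cell markers, among them Cd79a and Pax5, were above the limit of a zero count in all 12 libraries. All 8 precursor B cell markers were above it in the IL7 libraries, and 1 of 8 was in the LPS libraries. The 6 erythroid markers summed to at most 5.51 normalised reads in any library. By Xist and the Y-linked Ddx3y, WT 1 and WT 2 of each culture were from females, with a low Y-linked signal also in IL7 WT 2, while WT 3 and all T58A libraries were from males, so only pair 3 compared the same sex.

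Mitosis genes were more abundant in the IL7 cultures than in the LPS cultures. The 45 genes measured in both took 1.47% ± 0.209 of assigned reads in WT and 1.51% ± 0.0594 in T58A IL7 libraries (SD, n = 3 each). In the LPS libraries they took 0.662% ± 0.0721 in WT and 0.636% ± 0.0136 in T58A. For 44 of the 45 genes, all 6 IL7 libraries lay above all 6 LPS libraries in CPM (reads scaled to 1000000 assigned reads per library), against 30.7% of the 12086 genes tested in either culture. Another 20.3% of those genes lay above in LPS, and no mitosis gene did. The median ratio of the WT means, IL7 over LPS, was 2.31 for the mitosis genes and 1.12 for all genes. Tissue, cell stage and stimulus differ together between the cultures and the tables were normalised separately, so these ratios are a description. In bulk RNA, fewer cells in mitosis and less RNA per mitotic cell cannot be told apart.

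The widest gap was that of Plk1, the kinase that drives centrosome maturation and mitotic entry, at 180.3 to 218 CPM in IL7 libraries (median 203) and 29.7 to 51.1 in LPS libraries (median 45.6). Its ratio of WT means was 4.53. Incenp, the scaffold of the chromosomal passenger complex, had a ratio of 4.17, with 407 to 487 CPM in IL7 (median 455) and 96.5 to 127 in LPS (median 113). Among the 4 genes of anaphase, Ube2c, the ubiquitin-conjugating enzyme of the anaphase-promoting complex, had a ratio of 3.76, Cdc20, its activator, one of 3.60, Espl1, which encodes separase, one of 2.80 and Pttg1, which encodes securin, one of 2.04, below the median of all mitosis genes. Cdca8, which encodes the passenger protein borealin, followed Ube2c with 3.70, and Foxm1, the transcription factor of late cell cycle genes, had 3.23.

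The smallest ratio was that of Ncapg, a condensin subunit, at 1.39. It was the single gene whose libraries overlapped, with 178 to 271 CPM in IL7 and 127 to 184 in LPS, and the overlap came from IL7 WT 1, without which all 45 genes were separated. Cenpe, the kinetochore motor, had a ratio of 1.56, and Mki67, the proliferation marker that coats mitotic chromosomes, one of 1.66. By role, the median ratio was 3.70 for the 3 passenger complex genes, 3.20 for the 4 genes of anaphase, 2.66 for the 8 kinesins and 2.64 for the 8 kinases, cyclins and phosphatases. It was 2.16 for the 5 checkpoint genes, 1.91 for the 4 spindle assembly genes, 1.81 for the 7 genes of chromosome structure and 1.73 for the 3 centromere and kinetochore genes.

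The wider cell cycle was also higher in IL7. Of 39 DNA replication genes, 34 lay above in all IL7 libraries, with a median ratio of 2.20, and of 96 further mitosis genes outside the list 74 did, with a median of 2.07. Of 12 cohesin genes, which act in every chromosome cycle and also outside mitosis, 6 did so, with a median of 1.39. With TMM factors across all 12 libraries the median ratio was 2.08 for the mitosis genes and 1.02 for all genes.

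**Figure D1:**
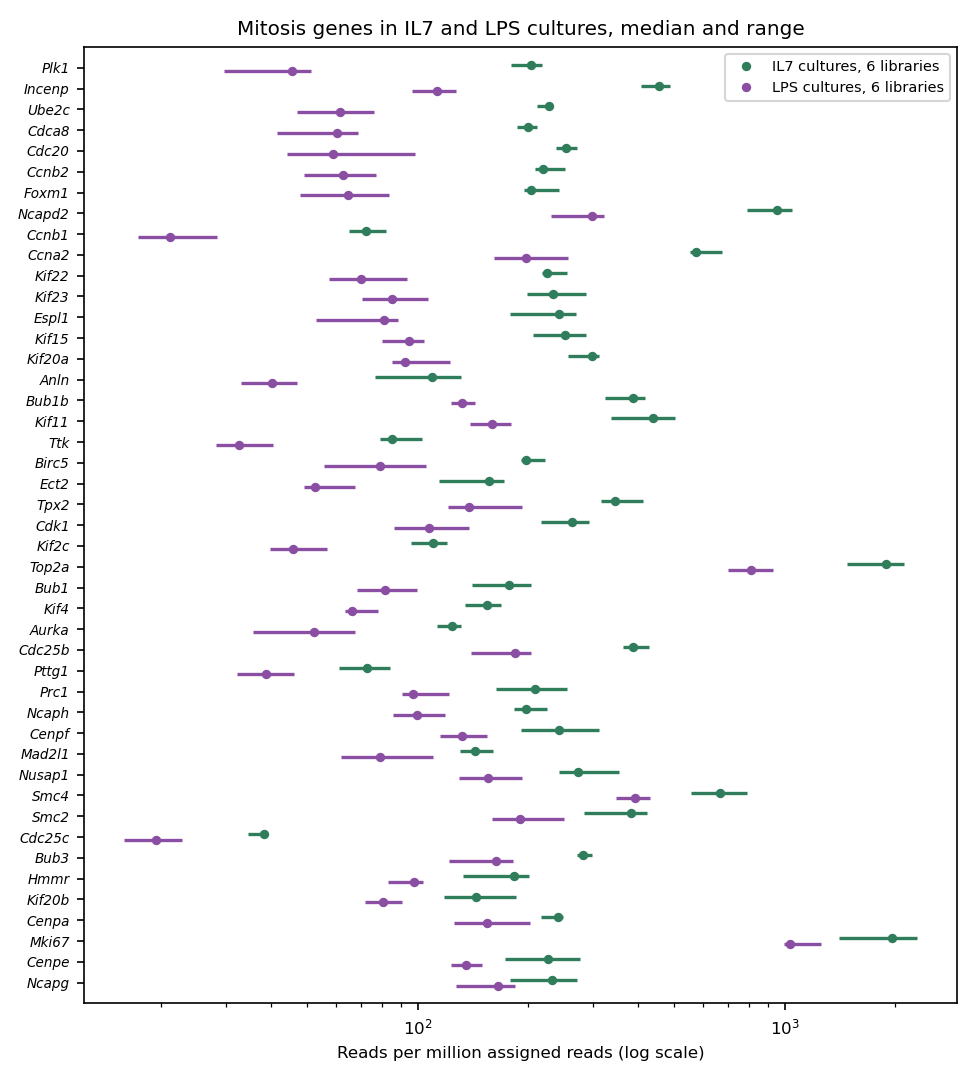
Each row is a mitosis gene, ordered by the ratio of its WT means, with its CPM on a log axis. Points are medians and bars run from the lowest to the highest of 6 libraries, green for IL7 and purple for LPS; the bars of Plk1 at the top are 180.3 to 218 and 29.7 to 51.1, and those of Ncapg at the bottom overlap.

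Per kilobase of exon, the order of levels was led by the same pair of genes in both cultures. The length joins all annotated exons of a gene and is not that of 1 transcript, so the order depends on it. In WT IL7 libraries Top2a, the topoisomerase that untangles sister chromatids, had 203 ± 36.3 CPM per kilobase and Mki67 had 186 ± 44.3, which did not differ beyond their spread. Ccnb2, cyclin B2, had 154 ± 9.58, Ccna2, cyclin A2, had 146 ± 16.5 and Ncapd2, a condensin subunit, had 145 ± 20.5, also within their spread of each other. In WT LPS libraries Mki67 came first at 112 ± 13.3 per kilobase, followed by Top2a at 92.6 ± 13.1. Cyclin B1 was below cyclin B2 per kilobase, with Ccnb1 at 17.4 ± 1.96 in IL7 and 5.42 ± 1.30 in LPS, where Ccnb2 had 43.5 ± 5.18. Their joined exons hold 4217 and 1531 bases, which widens this gap. In CPM the WT IL7 means were 73.5 ± 8.28 for Ccnb1 and 236 ± 14.7 for Ccnb2. Of the 50-base stretches of Ccnb1 exons, 23.4% also occur in other annotated genes, mainly the pseudogene Ccnb1-ps, so its count is uncertain. Cdc25c, a phosphatase that activates CDK1, had the lowest mean in both, at 7.53 ± 0.443 in IL7 and 4.17 ± 0.414 in LPS, where Anln, a scaffold of the cytokinetic ring, had 4.35 ± 0.567 and did not differ from it beyond their spread.

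The promoters of these genes were read because the genes differed together between the cultures. RefSeq promoters (GRCm38.p6, 250 bases before to 50 after the start) were matched for 38 of the 46 genes. MuvB complexes bind the cell cycle gene homology region, TTTGAA, and the factor NF-Y binds CCAAT. Both motifs were searched on either strand, and a base could count for both. TTTGAA was found in 29 of 38 promoters (76.3%), against 20.2% of the 27025 genes with a promoter and 14.2% of the genes tested in IL7 cultures. CCAAT was found in 76.3%, against 41.1% of all genes, and both motifs in 65.8%, against 7.97%. Of the 38 promoters, 17 (44.7%) held a TTTGAA that starts 20 to 45 bases downstream of a CCAAT, against 1.14% of all genes, a distance chosen after the positions had been seen. A match is a description and not a site shown to be bound.

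By comparison, TTTGAA stood in 13.3% of the promoters of 30 DNA replication genes and the spaced pair in 1 of them. Of 81 further mitosis genes, 40.7% held TTTGAA and 6 held the spaced pair. CACGTG, the E-box that MYC and its partner MAX bind, was found in 3 of the 38 mitosis promoters (7.89%), against 8.09% of all genes and 12.2% of the genes tested in IL7 cultures; the 3 are Anln, Ttk and Espl1. The 17 genes with the spaced pair had a median IL7 over LPS ratio of 2.58 and the 9 with a promoter but no TTTGAA one of 2.04. Their ranges overlapped, at 1.66 to 4.53 and 1.56 to 3.22, and all genes of both sets lay above in IL7. Whether the motif goes with the ratio was not tested.

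**Figure D2:**
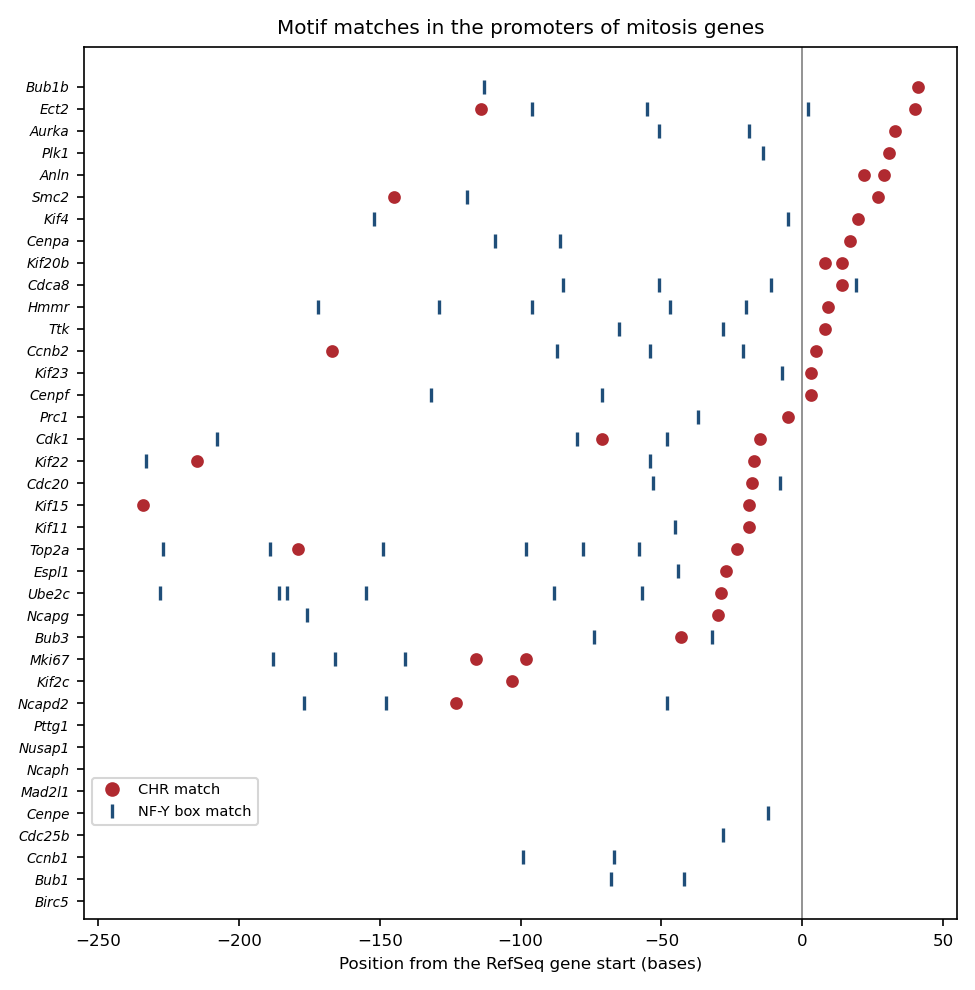
Each row is 1 of the 38 mitosis genes with a promoter, and the horizontal axis is the distance in bases from the RefSeq gene start. Red points are matches to the cell cycle gene homology region, found in 29 genes, and blue ticks are matches to the NF-Y box; most red points lie within the last stretch before or just after the start, with a tick upstream of them.

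The pair is shown here in 80-base windows of 8 promoters and in the whole promoter of Cdk1, which holds TTTGAA at 2 places. They were chosen to show the common spacing in genes of different roles, among them the checkpoint kinase Ttk, the bipolar spindle motor Kif11 and the chromosome arm motor Kif22. Each is written 5′ to 3′ in the direction of the gene, from RefSeq on GRCm38.p6. Capitals mark TTTGAA or its complement TTCAAA, and CCAAT or its complement ATTGG.
Cdc20, chr4:118437332-118437411, minus strand: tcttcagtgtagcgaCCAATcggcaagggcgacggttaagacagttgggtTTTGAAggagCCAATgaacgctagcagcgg
Plk1, chr7:122159405-122159484, plus strand: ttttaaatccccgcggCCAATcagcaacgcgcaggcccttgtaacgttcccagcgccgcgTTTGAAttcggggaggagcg
Ube2c, chr2:164769850-164769929, plus strand: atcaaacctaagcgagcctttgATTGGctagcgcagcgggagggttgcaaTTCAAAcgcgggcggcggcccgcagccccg
Ccnb2, chr9:70421521-70421600, minus strand: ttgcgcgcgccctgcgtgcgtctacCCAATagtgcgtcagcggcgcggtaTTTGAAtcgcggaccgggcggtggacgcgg
Ttk, chr9:83834646-83834725, plus strand: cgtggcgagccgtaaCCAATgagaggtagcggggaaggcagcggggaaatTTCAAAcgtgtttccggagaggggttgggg
Kif11, chr19:37376313-37376392, plus strand: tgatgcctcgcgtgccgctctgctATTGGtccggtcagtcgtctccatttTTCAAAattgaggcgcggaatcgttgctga
Kif22, chr7:127042408-127042487, minus strand: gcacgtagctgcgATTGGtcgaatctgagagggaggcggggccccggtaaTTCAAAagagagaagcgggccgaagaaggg
Top2a, chr11:99024183-99024262, minus strand: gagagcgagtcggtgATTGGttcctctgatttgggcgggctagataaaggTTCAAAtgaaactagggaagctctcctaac
Cdk1, chr10:69352863-69353162, minus strand: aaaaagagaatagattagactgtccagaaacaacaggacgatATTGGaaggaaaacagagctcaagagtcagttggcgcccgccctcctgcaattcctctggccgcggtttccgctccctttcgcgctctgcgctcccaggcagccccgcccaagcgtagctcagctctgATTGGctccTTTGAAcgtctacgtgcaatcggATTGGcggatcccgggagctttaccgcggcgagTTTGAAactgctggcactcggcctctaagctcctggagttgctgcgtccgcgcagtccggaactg

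In the IL7 cultures, most mitosis genes were close to WT in T58A. Without a term for the pair, limma called none of the 45 genes at an adjusted p under 0.05, and it called 0.0% of the 11604 genes tested; at an unadjusted p under 0.05 it found 1 mitosis gene, Pttg1, against 16.9% of all genes, and with the block 7, against 30.1%. Neither edgeR nor DESeq2 without the pair called any. With the pair as a block, limma called 2 of 45, against 12.7% of all genes (6.41% higher, 6.31% lower): Espl1, which encodes separase, rose, and Pttg1, which encodes securin, fell. The fitted log2 changes, T58A minus WT, had a median of 0.05 over the 45 genes and of -0.01 over all genes, with 30 genes higher and 15 lower. Without WT 1 the median of the mitosis genes was -0.05. For 44 of the 45 genes, the 95% interval of the change lay within 1.5-fold in either direction, which held for 57.3% of all genes. It also held for 89.6% of the 96 further mitosis genes and 87.2% of the 39 DNA replication genes. The exception among the 45 was Espl1, and with the block all 45 intervals lay within 1.5-fold, against 66.6% of all genes. The other 2 lists then had 96.9% and 100%.

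The groups did not overlap for 6 genes (13.3%), 3 with T58A above and 3 below, against 23.7% of all genes (12.9% above, 10.8% below). T58A lay above WT for Plk1, Cdc20 and Kif20a and below it for Pttg1, Ccnb2 and Cenpa.

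**Figure D3:**
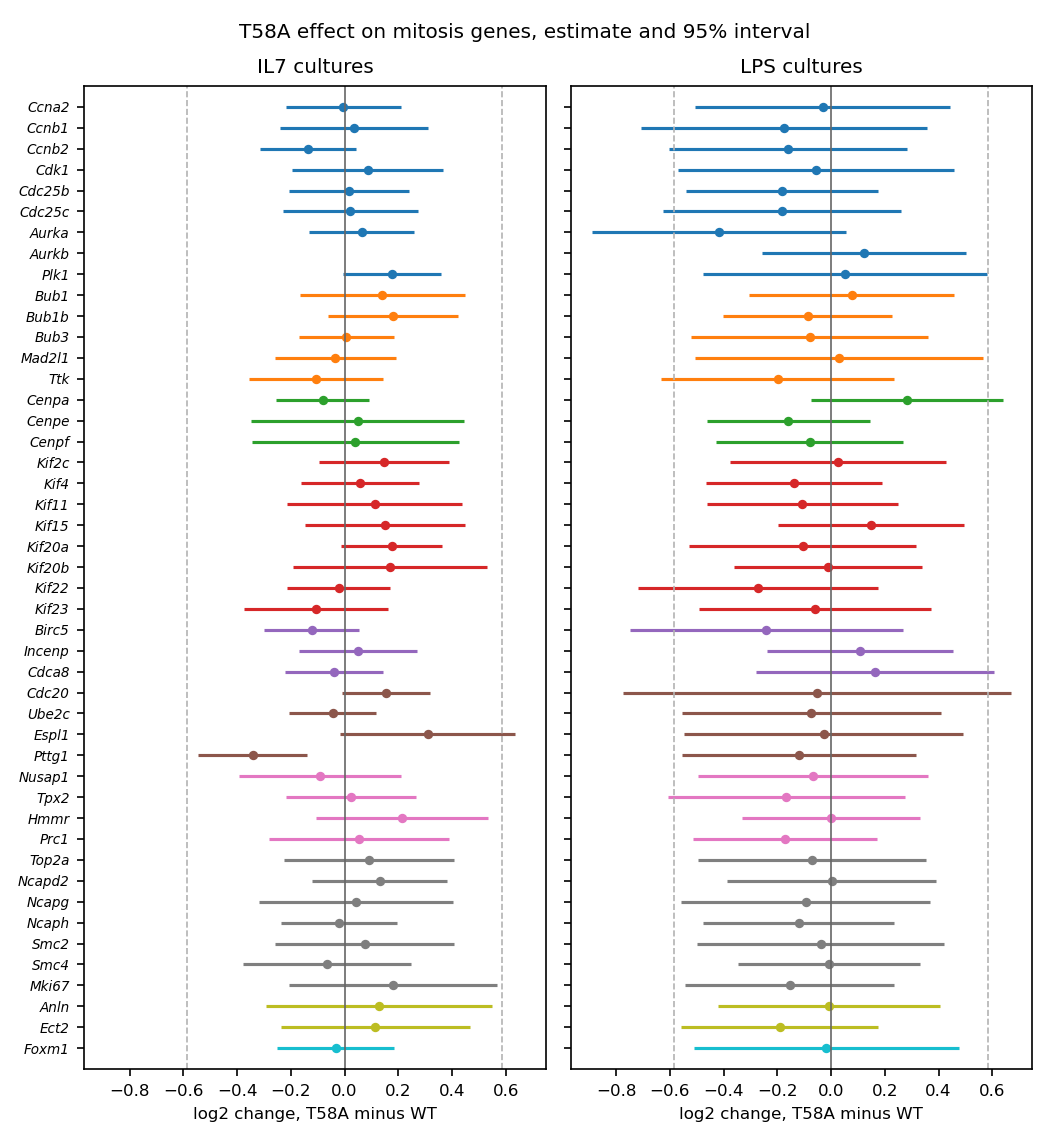
Points are fitted log2 changes, T58A minus WT, of each mitosis gene, with 95% intervals from limma without a block, in IL7 cultures on the left and LPS cultures on the right; colours separate the roles and dashed lines mark 1.5-fold. In IL7 the interval of Pttg1 lies below 0 and that of Espl1 reaches past the dashed line, while every LPS interval includes 0.

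Separase cuts the cohesin that holds sister chromatids together, and securin blocks it until anaphase. Pttg1 (chr11:43420250-43426251, minus strand, GRCm38) had 733, 757 and 788 normalised reads in WT 1 to 3 and 584, 575 and 639 in T58A 1 to 3. All 3 T58A libraries lay below all 3 WT libraries, and the gene was lower in each pair, by log2 values of -0.33, -0.40 and -0.30. The means were 759.6 ± 27.7 and 599 ± 34.8, a log2 change of -0.34 ± 0.09 (SE; 95% interval -0.54 to -0.14), with an adjusted p of 0.177 in limma and of 0.0243 with the pair as a block. The call with the block also held in edgeR (adjusted p = 0.0243) and not in DESeq2 (adjusted p = 0.0564), and leaving out pair 2 ended it (adjusted p = 0.110 in limma).

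Espl1 (chr15:102296266-102324357, plus strand) had 1748, 2413 and 1675 normalised reads in WT and 2421, 2549.6 and 2178 in T58A. It was higher in T58A in each pair, by log2 values of 0.47, 0.08 and 0.38, but the groups overlapped because WT 2 lay above T58A 3. The means were 1945 ± 407 and 2383 ± 189. The log2 change was 0.31 ± 0.14 (95% interval -0.02 to 0.63), with an adjusted p of 0.315 in limma and of 0.0452 with the block. With the block, DESeq2 also called it (adjusted p = 0.0329) and edgeR did not (adjusted p = 0.0528). In the authors' deposited table Espl1 had an adjusted p of 0.0335 and Pttg1 one of 0.0568, so that 1 mitosis gene was called there, against 9.64% of all genes with an adjusted p.

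Neither gene passed the test in LPS. There Pttg1 had 297, 215 and 316 normalised reads in WT and 276, 227 and 252 in T58A, in the order first unnumbered, second unnumbered and T58A 3, and Espl1 had 411, 521 and 605 in WT and 360.0, 591 and 575 in T58A. The groups overlapped for both genes, with log2 changes of -0.12 ± 0.19 and -0.03 ± 0.23. The difference between the cultures was 0.22 ± 0.21 for Pttg1 and -0.34 ± 0.29 for Espl1 (LPS minus IL7, log2), with an adjusted p of 0.996 for each in limma, and of 0.403 and 0.206 with the pair as a block.

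**Figure D4:**
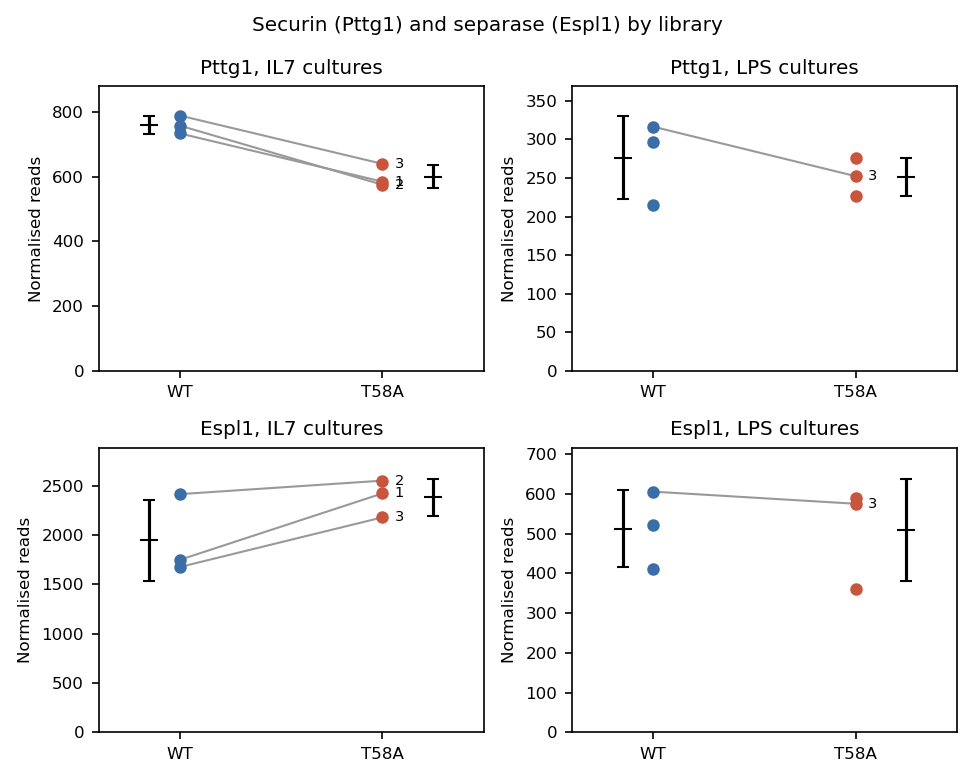
Normalised reads of Pttg1 (top) and Espl1 (bottom) in each library, WT in blue and T58A in red, with grey lines joining numbered pairs and black bars for the mean and SD of 3 libraries. In IL7 all 3 lines fall for Pttg1, from 733 to 788 down to 575 to 639, and all 3 climb for Espl1, while in LPS, where 1 pair carries a number in its header, the groups overlap.

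The RefSeq promoters of the pair differ in the motifs above. That of Espl1 holds CCAAT at position -44 and TTTGAA at -27, counted in bases from the start with no position 0, and 1 CACGTG. The pair stands closer together than the 20-base limit above and was not counted in it. That of Pttg1 holds none of the 3 motifs in this window. The window lies wholly inside the annotated gene given above, whose 5′ end is at 43426251. Bases upstream of that end were not searched. Whether the difference between the promoters depends on the start used was not tested. Capitals mark TTTGAA and the complement of CCAAT.
Espl1, chr15:102296043-102296342, plus strand: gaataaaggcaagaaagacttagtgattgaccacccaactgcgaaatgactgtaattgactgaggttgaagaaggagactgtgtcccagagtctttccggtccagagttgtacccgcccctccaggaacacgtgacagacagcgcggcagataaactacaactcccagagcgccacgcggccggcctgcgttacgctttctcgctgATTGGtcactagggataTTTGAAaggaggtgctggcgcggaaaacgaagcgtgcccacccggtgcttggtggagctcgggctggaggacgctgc
Pttg1, chr11:43425932-43426231, minus strand: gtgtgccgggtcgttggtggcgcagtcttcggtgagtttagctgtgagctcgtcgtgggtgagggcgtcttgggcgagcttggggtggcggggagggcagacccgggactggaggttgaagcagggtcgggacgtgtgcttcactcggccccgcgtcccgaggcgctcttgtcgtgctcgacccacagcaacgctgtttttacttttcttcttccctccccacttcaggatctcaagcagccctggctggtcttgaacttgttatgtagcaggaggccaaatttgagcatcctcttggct

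Genes of mitotic entry in IL7 differed by less than the spread of their libraries in most cases. Over the 8 kinases, cyclins and phosphatases the median log2 change was 0.03, from -0.14 for Ccnb2 to 0.18 for Plk1, and none passed with or without the block. Plk1 had 1672, 1869 and 1778 normalised reads in WT and 1909, 2055 and 2048 in T58A. Its T58A libraries all lay above WT, with a log2 change of 0.18 ± 0.08 and an adjusted p of 0.306 in limma, or 0.0993 with the block. Of its 50-base stretches, 6.56% also occur in other genes, mainly Plk-ps1. Ccnb2 had 2085, 2332 and 2148 in WT and 1963, 1964 and 2041 in T58A. Here all T58A libraries lay below WT, with a log2 change of -0.14 ± 0.08 and an adjusted p of 0.393, or 0.211 with the block.

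Genes at the core of mitosis overlapped between the genotypes. Cdk1, the kinase that cyclin B activates, had 2011, 2486 and 2664 normalised reads in WT and 2323, 2443 and 2805 in T58A. Ccnb1 had 601, 685 and 761 in WT and 657, 651 and 787 in T58A. Foxm1 had 1858, 2241 and 1826 in WT and 1946, 1938 and 1879 in T58A. The groups overlapped for all 3, whose log2 changes were 0.09 ± 0.12, 0.03 ± 0.12 and -0.03 ± 0.10. Their 95% intervals ran from 0.87-fold to 1.29-fold, from 0.85-fold to 1.24-fold and from 0.84-fold to 1.14-fold.

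Among genes of the checkpoint, which holds anaphase back, no member was called in IL7 with or without the block. The 5 changes ran from -0.11 for Ttk to 0.18 for Bub1b, which encodes the checkpoint protein BUBR1, with a median of 0.01. Bub1b had 3086, 3847 and 3029 normalised reads in WT and 3742, 3901 and 3581 in T58A, overlapping through WT 2. It was higher in T58A in each pair, by log2 values of 0.28, 0.02 and 0.24. The adjusted p was 0.407 in limma, or 0.129 with the block. Cdc20, the target of the checkpoint, had 2209.9, 2281 and 2277 in WT and 2472, 2461 and 2602 in T58A. All its T58A libraries lay above WT, by a log2 change of 0.15 ± 0.07 with an adjusted p of 0.316, or 0.134 with the block, and 10.4% of its 50-base stretches also occur in other genes, mainly Gm7856. Ube2c changed by -0.04 ± 0.07.

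At the centromere, Cenpa, the histone variant that marks it, had 2256, 2309 and 2317 normalised reads in WT and 2225, 2043 and 2237 in T58A. The T58A libraries lay below WT by a narrow margin, with a log2 change of -0.08 ± 0.07 and an adjusted p of 0.590, or 0.432 with the block. In the passenger complex Birc5, which encodes survivin, had 1865, 2028 and 2078 in WT and 1785, 1827 and 1865 in T58A. It was lower in each pair and the groups met between WT 1 and T58A 3, with a log2 change of -0.12 ± 0.08 and an adjusted p of 0.436, or 0.231 with the block. Incenp changed by 0.05 and Cdca8 by -0.04.

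The 8 kinesins had a median log2 change of 0.13, from -0.11 for Kif23, a motor of the central spindle, to 0.18 for Kif20a, a motor that brings the passenger complex to the midzone. Kif20a had 2381, 2769.9 and 2524 normalised reads in WT and 2797, 2935 and 2917 in T58A. All its T58A libraries lay above WT, by 0.18 ± 0.08 on the log2 scale, with an adjusted p of 0.326, or 0.108 with the block. Of its exon bases, 29.3% overlap those of Cdc23, and the library kit does not mark strand, so reads of the shared stretch cannot be told apart. Kif4, on the X chromosome, changed by 0.06, and the sexes of the libraries differ as given above.

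Genes of chromosome structure had a median log2 change of 0.07, from -0.07 for Smc4 to 0.18 for Mki67. Mki67 had 13088, 21263 and 17855 normalised reads in WT and 18484, 20986 and 18655 in T58A. Top2a had 13701, 19609.7 and 17723 in WT and 16866, 18792 and 18137 in T58A. For both, WT 1 was the lowest and WT 2 the highest of the 6 libraries, and the T58A libraries fell between them. The log2 changes were 0.18 ± 0.17 and 0.09 ± 0.14. The 4 spindle assembly genes ranged from -0.09 for Nusap1 to 0.22 for Hmmr, a microtubule-binding protein of the spindle poles, and the cytokinesis genes Anln and Ect2 changed by 0.13 and 0.11. No gene of these groups was called with or without the block.

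WT libraries of the IL7 cultures spread more than T58A libraries did over these genes. IL7 WT 1 was the lowest of 6 libraries for 33 of the 45 genes, against 28.0% of all genes, and WT 2 was the highest for 21, against 12.3%. Their median deviations from each gene's mean were -0.19 and 0.16 on the log2 scale, while the T58A libraries lay at -0.02, 0.05 and 0.02. The pairs went different ways. In pair 1 the mitosis genes had a median log2 difference of 0.19 with 40 of 45 higher in T58A, in pair 2 one of -0.06 with 12 higher, and in pair 3, the same-sex pair, one of 0.04 with 27 higher. Over the 45 genes, 10 were higher in T58A in all 3 pairs, against 25.9% of all genes, and 4 were lower in all 3, against 26.0%.

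Exon length moved with these deviations. The Spearman correlation of the deviation of WT 1 with exon length was -0.57 over the 45 genes and -0.21 over 11077 genes with a length. That of WT 2 was 0.56 and 0.14, that of T58A 2 was 0.45 and 0.11 and that of T58A 1 was 0.22 and 0.11. WT 3 had -0.11 and -0.11, and T58A 3 had -0.12 and 0.10. The IL7 change, T58A minus WT, correlated with length by 0.26 over the 45 genes and 0.16 over the 11077. These are descriptions across genes that share these libraries. In LPS the correlation of the deviation was -0.34 for WT 3 and -0.43 for T58A 3 over the 46 genes, against -0.004 and 0.03 over 10784 genes. Over the 46 genes and the 10784 genes, WT 1 had 0.01 and -0.17 and the first unnumbered column 0.29 and -0.26. WT 2 had 0.03 and 0.18 and the second unnumbered column 0.24 and 0.18. The LPS change, T58A minus WT, had 0.18 and -0.005. In the IL7 libraries myeloid markers, 11 listed, summed to 650.4 to 1905 normalised reads in WT and 449.9 to 930.1 in T58A. The 7 B cell markers summed there to 27404 to 42810.0 in WT and 23389.5 to 27115 in T58A. In limma with the pair as a block 4 of the 7 B cell markers fell in IL7, against 6.31% of all genes, and without the block 0 did. The 4 were Ms4a1, Blnk, Cd79b and Cd79a. The 8 precursor B cell markers summed to 17579 to 24206 in WT and 16611 to 19486 in T58A in IL7. With the block 2 of them fell, Rag1 and Rag2. The 7 T and NK markers found summed to 419.5 to 967.9 in WT and 774.6 to 1122 in T58A in IL7. Of these only Thy1 was above the limit of a zero count in all IL7 libraries, at 386 to 1101. It rose in limma with the block (adjusted p = 0.0431), and no other T or NK marker exceeded 9.28. The part of these, of sex and of length in the changes of the mitosis genes was not tested.

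**Figure D5:**
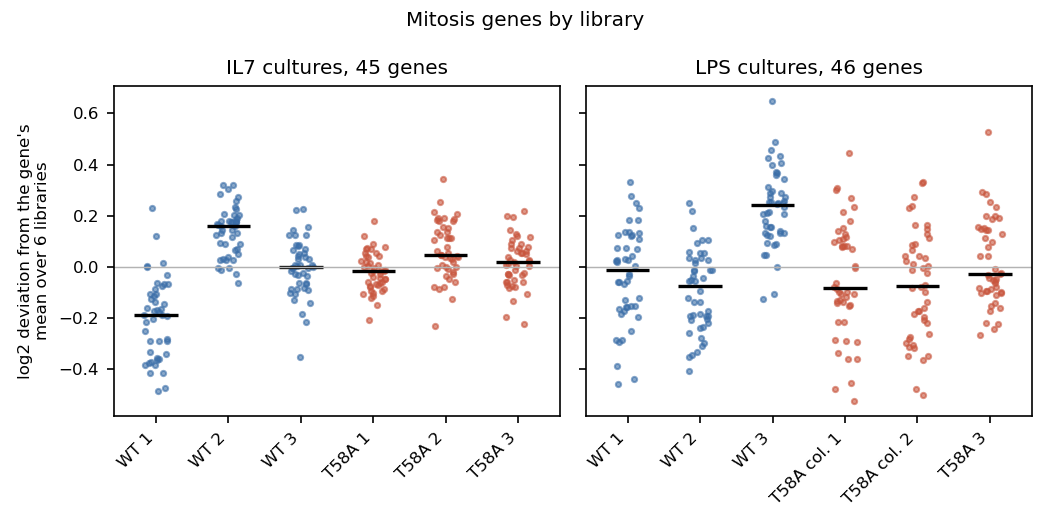
Each point is a mitosis gene, placed by the log2 deviation of 1 library from the gene's mean over the 6 libraries of its culture, with WT in blue, T58A in red and black bars at the medians. In IL7 the medians of WT 1 and WT 2 lie at -0.19 and 0.16, and in LPS that of WT 3 lies at 0.24; col. 1 and col. 2 are the unnumbered columns.

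In the LPS cultures no mitosis gene was called. Without the pair, limma called 0 of 46, against 0.0% of 11291 genes, and 0 were under an unadjusted p of 0.05, against 2.52% of all genes. With the pair as a block and the first unnumbered column set with WT 1, it called 0 of 46, against 0.0354% of all genes (0.0177% in each direction), with 4 under an unadjusted p of 0.05, against 16.7%. Both edgeR and DESeq2 called 0 with and without the block. Of the 40 mitosis genes with an adjusted p in the authors' deposited table, 0 were called, against 4.2% of all genes with one. The median log2 change was -0.07, against 0.01 for all genes, with 10 genes higher and 36 lower in T58A. Without WT 3, which was the highest of 6 libraries for 29 of the 46 genes (14.9% of all genes), the median was 0.02. For 35 of 46 genes the 95% interval lay within 1.5-fold, against 41.6% of all genes. With the pair as a block it did for 45 of 46, against 70.4% of all genes, and the exception was Aurka. For the 96 further mitosis genes the shares were 61.5% without and 91.7% with the block. For the 39 DNA replication genes they were 30.8% and 92.3%. The 6 plasmablast markers found, among them Prdm1 and Xbp1, summed to 44918 to 109284 normalised reads in WT and 28413 to 73227 in T58A in LPS. All 6 had a log2 change below 0, with a median of -0.57, and 0 passed the test with or without the block, while 5 were under an unadjusted p of 0.05 with it. In IL7 they summed to 8794 to 10169 in WT and 9078 to 9589 in T58A, and with the block Sdc1 rose and Igj fell. The 7 B cell markers summed to 34053 to 39823 in WT and 32056 to 36334 in T58A in LPS, and the 11 myeloid markers to 701 to 956 and 666 to 846. Of the 11 myeloid markers 5 were above the limit of a zero count in all LPS libraries. Itgam alone had 338 to 716 normalised reads. The part of these markers in the LPS changes of the mitosis genes was not tested.

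Aurka, the centrosome kinase that builds the spindle poles, had the largest fitted change among the 46 mitosis genes in the LPS cultures. It had 383, 335 and 464 normalised reads in WT and 277, 239 and 375 in T58A, in the order first unnumbered, second unnumbered and T58A 3. T58A 3 lay above WT 2, so the groups overlapped, and the gene was lower in all 3 pairs as set above. The log2 change was -0.42 ± 0.21 (95% interval -0.89 to 0.05), with an adjusted p of 1.00 in limma and of 0.100 with the block. In IL7 Aurka had 1046, 1211 and 1144 in WT and 1144, 1189.6 and 1217 in T58A, a log2 change of 0.06 ± 0.09.

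Cenpa was higher on average. Its libraries had 882, 1067 and 985 normalised reads in WT and 1195, 1354 and 1029.6 in T58A, with an overlap between T58A 3 and WT 2. The log2 change was 0.28 ± 0.16, with an adjusted p of 1.00, or 0.188 with the block. Kif22 had 573, 419 and 645 in WT and 444, 384 and 515 in T58A. These overlapped, with a change of -0.27 ± 0.20 and an adjusted p of 1.00, or 0.195 with the block.

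The groups did not overlap for 2 of the 46 genes (4.35%, against 6.4% of all genes, 3.1% above and 3.3% below), Cenpe and Cdc25b, a phosphatase that activates CDK1, both with T58A below. Cenpe had 934, 1002 and 1021 normalised reads in WT and 841, 929 and 879 in T58A, and Cdc25b had 1291, 1363 and 1266 in WT and 955, 1265 and 1263 in T58A. Their margins were narrow, with log2 changes of -0.16 ± 0.14 and -0.18 ± 0.16. Ect2, which activates the small GTPase RhoA for cytokinesis, had 343, 404 and 466 in WT and 341, 351 and 362 in T58A, a change of -0.19 ± 0.16.

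Core genes of mitosis varied as much within as between the genotypes in LPS. Foxm1 had 409, 529.9 and 414 normalised reads in WT and 325, 558 and 476 in T58A. Cdk1 had 773, 577 and 950.5 in WT and 913, 578 and 714 in T58A, and Ccnb1 had 159, 117 and 196 in WT and 134, 116 and 161 in T58A. The groups overlapped for each, with log2 changes of -0.02 ± 0.22, -0.06 ± 0.23 and -0.18 ± 0.24. Plk1 had 209, 306 and 351 in WT and 234, 305 and 350.1 in T58A. Mki67 had 7945, 6652 and 8686 in WT and 6887, 6658 and 7266 in T58A, and Top2a had 6091, 4707 and 6424 in WT and 6289.7, 4892 and 5181 in T58A. These overlapped too, with log2 changes of 0.05 ± 0.23, -0.15 ± 0.17 and -0.07 ± 0.19.

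Passenger complex genes other than Birc5 were on the higher side in LPS. Aurkb had 574, 588 and 680.2 normalised reads in WT and 551, 716 and 752 in T58A, a log2 change of 0.12 ± 0.17. Cdca8 had 291, 389.9 and 455 in WT and 368, 419 and 470.3 in T58A, a change of 0.16 ± 0.20. Incenp changed by 0.11 and Birc5 by -0.24. Kif15, a motor that keeps the spindle bipolar, had 563, 552 and 691 in WT and 684, 699 and 612 in T58A, a change of 0.15 ± 0.15. The groups overlapped for all of these, and none had an adjusted p under 0.05 with or without the block. Over the pairs, 14 of the 46 genes were lower in T58A in all 3 and 3 were higher, namely Cenpa, Incenp and Cdca8, against 19.0% and 20.5% of all genes.

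By role, the LPS medians lay between -0.16 for the 9 kinases, cyclins and phosphatases and 0.11 for the 3 passenger complex genes. They were -0.12 for the 4 spindle assembly genes, -0.08 for the 5 checkpoint genes and the 8 kinesins, -0.07 for the 7 genes of chromosome structure and -0.06 for the 4 of anaphase.

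The change in LPS minus that in IL7 was tested by an interaction term with the 12 libraries in 1 fit. Without the pair limma called 0 of 45 genes, against 0.0% of 10767, with 0 at an unadjusted p under 0.05, and neither edgeR nor DESeq2 without the pair called any. With the pair as a block it called 1, against 4.1% of all genes (3.19% higher and 0.901% lower in LPS). That gene was Aurka, with a difference of -0.48 on the log2 scale (block SE 0.11, adjusted p = 0.0396 with the block). It was also called by edgeR with the block and not by DESeq2, and the call was lost when the unnumbered columns were exchanged (adjusted p = 0.524). The median difference over the 45 genes was -0.13, against 0.02 for all genes.

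Other genes of division gave a frame for these counts in IL7 with the pair as a block. Of 96 further mitosis genes 3 rose and none fell: Anapc1, the largest subunit of the anaphase-promoting complex, by 0.42 ± 0.07, Kif24, a kinesin of the centriole, by 0.41 ± 0.11, and Cdc25a, a phosphatase that activates cyclin-dependent kinases, by 0.26 ± 0.07 (log2, block SE). None of 12 cohesin genes was called. Of 39 DNA replication genes 6 rose, among them Pole, the catalytic subunit of the leading strand polymerase, by 0.41 ± 0.07 and Mcm2, a subunit of the replicative helicase, by 0.33 ± 0.06. Their shares, 3.13% and 15.4%, stand beside 6.41% of all genes that rose in that fit. Of the 23 regulators of the DREAM and B-MYB complexes, E2f4 and E2f3 rose, by 0.25 ± 0.07 and 0.29 ± 0.08. Without the block none of these lists had a gene past the threshold, and in LPS none had with or without it.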

How the data were processed

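Total RNA of 12 libraries was sequenced after preparation with the TruSeq RNA Sample Prep v2 kit, per the labels' protocols, which name no step that marks strand. The submitters' processing notes name bcl2fastq 1.8.4, TopHat2 2.1.0, HTSeq 0.6.1, DESeq2 with no version and the build mm10. For each culture the deposited table holds 1 signal value for a gene in a library. These are read numbers divided by a factor of the library, judged from the values, and are called normalised reads here. Division by the step of each column returned whole reads, within 0.001, for 100% of values. The table also holds, per the file headers, the authors' log2 fold change with its p-value and adjusted p-value. The authors' p-values were within 1% of DESeq2 with the pair as a block for 94.0% of genes in IL7, and in LPS for 99.7% with the first unnumbered column set with WT 1 and 17.0% with the columns exchanged.

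Groups came from titles and headers. The main test, foreseen for normalised values in the design, was limma 3.58.1 (R 4.3.3) with a trend on log2 of the value plus 1, in the whole table of each culture, after filterByExpr of edgeR 4.0.16 (minimum count 10, total 15) on the recovered reads. It was two-sided, had no block, and used a Benjamini-Hochberg adjusted p under 0.05. Fold changes on this scale understate the change of low genes, and intervals are 95%. The difference between cultures was an interaction over all 12 libraries. The titles call the libraries pairs, and deviations of same-numbered libraries correlated by 0.41, 0.15 and 0.40 in IL7 over 11604 genes; in LPS WT 1 went with the first unnumbered column (0.34), WT 2 with the second (0.66) and WT 3 with T58A 3 (0.54). The block was therefore taken as the design's pairing and its values are printed where they change a call.

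Alternatives were the block, edgeR and DESeq2 1.42.0 on recovered reads, TMM, total reads, no filter, pseudocounts of 0.5 and 5, and leaving out each library or pair 2; TMM with the block was added after the data had been seen. On recovered reads in IL7, edgeR without the block called 0 and with it 1424 genes, and in LPS 0 and 39. Exon lengths, overlaps and shared 50-base stretches came from GENCODE M21 (GRCm38), which may not be the authors' annotation, and 94.6% of 24015 symbols matched. Depth was 5110746 to 10201113 reads per library, and the limit that a count of 0 allows, 3 reads, is 2.15 to 4.12 normalised reads, for counting error only.

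The 46 members and all lists were chosen with earlier results of these data known. Values in every library are given for Foxm1, Mki67, Ccnb1, Cdk1, Plk1, Top2a and Aurkb, and per culture for members past 0.05 with or without the block or, where fewer than 3 passed, for the 4 with the smallest p in each direction; role groups add their extremes, and other lists up to 4 called genes. Bub1b, Cdc25b and the values of Pttg1 and Espl1 in LPS and of Aurka in IL7 were added after the values had been seen. One B cell marker of the list fixed in the design is not reported here and was left out of that list.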

Additional observations from a re-analysis of the deposited data

How the results depend on the processing

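In IL7 cultures limma without a block called 0 mitosis genes, and so did edgeR, DESeq2, TMM, total reads, no filter and both pseudocounts without a block. With the pair as a replicate block it called 2 (Espl1 and Pttg1), also with TMM and the block; edgeR with the block called 1 (Pttg1), DESeq2 with the block 1 (Espl1), and the block without pair 2 called 1 (Espl1). The count of all genes was 0 without the block and 1476 with it in limma, 296 and 1023 in DESeq2, and 775 with the block without pair 2. In LPS cultures every setting called 0 mitosis genes, block pairings included, while all-gene counts with the block were 4 in limma, 39 in edgeR and 231 in DESeq2, against 0, 0 and 2 without it. For the difference between cultures the count was 0 without the block and 1 (Aurka) with it in limma, edgeR and TMM; all genes came to 441, 484 and 438. The cause of these differences was not tested. Leaving out 1 library gave 0 to 0 called genes in IL7, LPS and for the difference, medians of -0.05 to 0.13 in IL7 and of -0.17 to 0.02 in LPS, and 44 to 45 genes separated between the cultures. The IL7 median was below 0 without WT 1 and the LPS median above 0 without WT 3. For single genes named with values in every library, 227 of 234 alternative values in IL7 kept their side of the threshold and 7 passed it, those of Pttg1 and Espl1 with a block. In LPS all 294 kept it. Signs changed for 7 and 11 values, none of them past the threshold. The fewest reads behind a mitosis gene in 1 library were 101, for Cdc25c in LPS. The median SE of the log2 change over the mitosis genes was 0.19 in LPS and 0.11 in IL7 without the block, and 0.10 and 0.08 with it.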

Other observations

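Of the 9 G1 cyclins and kinases tested in the IL7 cultures, 3 rose in limma with the pair as a block (33.3%, against 6.41% of all genes) and 6 were not called. Cdk6, a cyclin D kinase, averaged 234 ± 82.3 normalised reads over the 3 WT libraries and 451 ± 10.3 over the 3 T58A libraries (SD). It rose by 1.01 ± 0.19 on the log2 scale (block SE), with an adjusted p of 0.0154. Ccnd2, cyclin D2, rose by 0.33 (adjusted p = 0.0272) and Cdk4, the other cyclin D kinase, by 0.26 (adjusted p = 0.0324). Without the block none was called (adjusted p = 0.175, 0.319 and 0.244), and none of these genes was called in LPS. The list was chosen with earlier results known, so its count is a description.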
